A study of Mus musculus with 50 samples.

Results

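The clustered protocadherins of mouse embryonic stem cells (ESCs) were followed across the knockout and point-mutant lines of the PRC2 methyltransferases EZH1 and EZH2. Members were the genes of the alpha, beta and gamma clusters on chromosome 18. They were picked by symbol and not by a measured value, but with earlier results of these data known. Of 58 such genes, 40 had a row in the RNA-seq table of 18055 genes: 3 of 14 alpha, 15 of 22 beta and all 22 gamma genes. The remaining 18 are not analysed here in RNA-seq, and all 58 were placed on the genome for the peak lists. In mm9 the alpha cluster lies at chr18:37089939-37347311 (257.4 kb), the beta cluster at chr18:37424652-37681073 (256.4 kb) and the gamma cluster at chr18:37821599-38001527 (179.9 kb).

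Clustered protocadherins are cadherin-like adhesion molecules of the cell surface, best known from neurons, where each cell expresses a small and varying set of them and branches of the same neuron recognize and avoid each other through them. Every member starts with a large variable exon that codes for the extracellular cadherin repeats and the membrane span and that has its own promoter. In the alpha and gamma clusters this exon is spliced to short constant exons shared by the whole cluster, which code for the cytoplasmic tail, while a beta gene is a single exon. Choice of a variable exon is known to depend on CTCF, cohesin, distant enhancers and DNA methylation of the promoter. The C types at the end of the alpha and gamma clusters (*Pcdhac1*, *Pcdhac2*, *Pcdhgc3*, *Pcdhgc4* and *Pcdhgc5*) are known to be used more uniformly between neurons than the others. PRC2 deposits mono-, di- and tri-methylation of histone H3 lysine 27 (H3K27me1, H3K27me2 and H3K27me3), the last a mark of repressed genes, through EZH1 or EZH2, and SUZ12 is one of its core subunits. H3K27ac is the acetylated form of the same lysine and marks active promoters and enhancers.

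All lines came from E14 ESCs (WT) by CRISPR/Cas9 editing and were grown as ESCs. *Ezh2* KO lacks *Ezh2* and keeps *Ezh1*. *Ezh1/2* dKO lacks both genes. *Ezh2* Y726D and *Ezh2* R685C carry a point mutation of the endogenous *Ezh2* in *Ezh1* KO cells, Y726D being catalytically dead. In the HA ChIP-seq, *Ezh1/2* dKO cells re-expressing HA-tagged human EZH1 were set beside untagged *Ezh1/2* dKO cells. There was 1 line per genotype, so a line and its genotype cannot be told apart. RNA-seq had 2 libraries for each line but *Ezh2* R685C, whose RNA is not analysed here. ChIP-seq and ATAC-seq had 1 library per line and target, with no replicate check, and comparisons of peaks are descriptions without a test. The study describes its samples as biological replicates in general, but the labels do not say whether both RNA-seq libraries of a line came from separate cultures. The p-values thus measure the spread between these libraries, which may be technical.

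The 8 RNA-seq libraries held 3604123 to 5181553 reads on genes. *Ezh2* had 1 or 2 reads in each *Ezh2* KO and *Ezh1/2* dKO library, against 448 and 567 in WT, and *Ezh1* had a normalized count of 14 to 24.1 in the *Ezh1/2* dKO and *Ezh2* Y726D libraries against 227 and 377 in WT. The ESC label held for 10 of 10 ESC markers: none was called in a comparison with WT, and their sum lay between 14300 and 18100 in all libraries. Endoderm markers summed to 9.41 to 27.1 in WT and *Ezh2* KO and to 44.7 to 156 in the other 4 libraries. Neural markers summed to 1730 to 3130, with none of the 7 tested of 12 called. The trophectoderm list summed to 315 to 538 in WT and *Ezh2* KO and to 541 to 1110 in the other lines, the mesoderm list to 42.9 to 74.7 and 85.7 to 276. The fibroblast list, with 3 of its 5 genes in the table, summed to 4.81 to 16.7 in WT and *Ezh2* KO and to 86.1 to 115 in the other lines, where *Thy1* gave most of it. Called higher in *Ezh1/2* dKO with *Ezh2* Y726D versus WT with *Ezh2* KO were *Gata4*, *Sox7* and *Dab2* (3 of 3 endoderm genes tested). So were *Krt8* and *Krt18* (2 of 4 trophectoderm), *Kdr* (1 of 4 mesoderm) and *Thy1* (1 of 1 fibroblast). Of all genes tested, 5.57% were called there. Versus WT, *Gata4* and *Dab2* were called in *Ezh1/2* dKO (4.02% of all genes), and *Krt8*, *Krt18* and *Thy1* there and in *Ezh2* Y726D (2.72%). *Ezh2* Y726D library 2 stood apart at the gamma genes, as given below.

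H3K27me3 lay on the variable exons of many members in WT ESCs and SUZ12 on fewer, and the pattern differed between lines. A peak of H3K27me3 (p of at most 1e-10) lay within 1 kb of the start codon of 32 of 58 members in WT (55.2%), against 14% of 22350 protein-coding gene starts in that list. The same count was 26 in *Ezh2* KO (44.8%, with 12% of all starts), 36 in *Ezh2* R685C (62.1%, with 18.8%) and 0 in *Ezh1/2* dKO (0.0617% of starts) and *Ezh2* Y726D (0.192%). SUZ12 peaks near the start were at 7 members in WT (12.1%, with 12.2% of all starts), 1 in *Ezh2* KO (3.49% of starts), 1 in *Ezh1/2* dKO (0.64%), 6 in *Ezh2* Y726D (8.1%) and 20 in *Ezh2* R685C (34.5%, with 6.81%). For SUZ12 the WT share of members within 1 kb of the start was thus near that of all genes. For H3K27me3 in the WT, *Ezh2* KO and *Ezh2* R685C lists it was above it. Most H3K27me3 peaks near member starts in WT were lost at p of at most 1e-20, as given at the end.

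**Figure D1:**
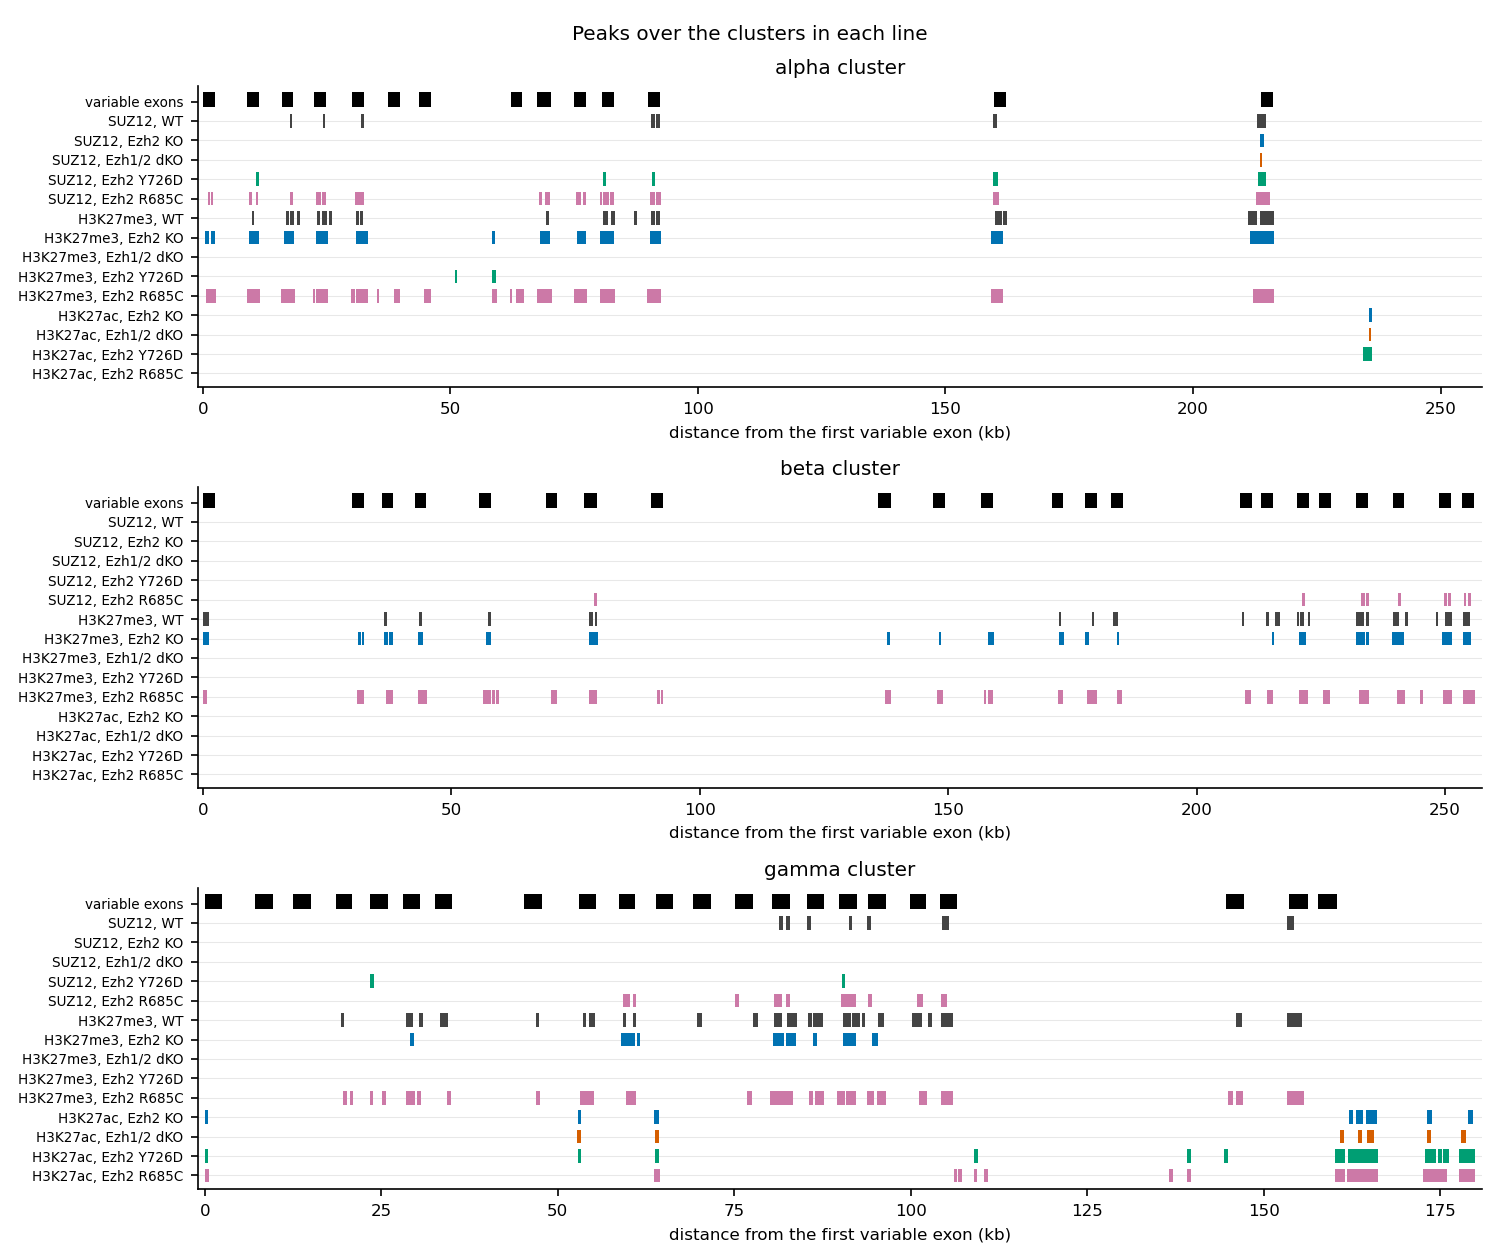
Peaks of SUZ12, H3K27me3 and H3K27ac along the alpha, beta and gamma clusters, by distance from the first variable exon in kb; black boxes are variable exons and each coloured row is 1 library of a line. H3K27me3 boxes sit on variable exons in WT, *Ezh2* KO and *Ezh2* R685C, the *Ezh1/2* dKO rows hold no H3K27me3 peak, and H3K27ac boxes gather at the end of the gamma cluster.

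Peaks followed the body of the variable exon rather than the space between genes. Variable exons make up 13.3% of the alpha, 20.6% of the beta and 30.2% of the gamma cluster. In WT, H3K27me3 peaks covered 35.8% of the exon bases of the alpha cluster and 1.69% of its other bases. For beta the values were 25.3% and 0.861%, and for gamma 32% and 3.11%. In *Ezh2* R685C they were 84.7% and 3.81% in alpha, 59.7% and 0.899% in beta, and 42.1% and 1.08% in gamma. Coverage and counts of peaks depend on the depth of each library too, and the lists are not scaled to the spike-in of the study. They tell where peaks were called, not how much of the mark a line carries. In western blots the paper reports a global loss of H3K27me3 in *Ezh2* KO. For *Ezh2* R685C it reports a rescue that favoured H3K27me2 over H3K27me3. From ChIP-seq peaks, by contrast, the paper reports that most H3K27me3 sites of WT were kept in *Ezh2* KO. Counted on the exon itself, H3K27me3 touched 40 of 58 members in WT (69%), 35 in *Ezh2* KO (60.3%) and 52 in *Ezh2* R685C (89.7%), while 14.5%, 12.2% and 19.3% of protein-coding genes had a peak in the 2425 bp after their start. SUZ12 touched the exon of 12 members in WT (20.7%), 7 in *Ezh2* Y726D (12.1%) and 24 in *Ezh2* R685C (41.4%). In those lists 12.2%, 8.13% and 6.93% of protein-coding genes had a SUZ12 peak in the 2425 bp after their start. In *Ezh2* KO and *Ezh1/2* dKO it touched 1 exon each (1.72%, with 3.64% and 0.747% of genes). These counts on the exon were chosen after the peaks were seen.

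In each of the 5 lines, the highest SUZ12 peak of the clusters lay at an alpha C type. Outside the C types, WT heights (−log10 p) reached 16.1 in alpha (*Pcdha4*) and 20.2 in gamma (*Pcdhga12*). *Pcdhac2*, the last variable exon and a C type, had a SUZ12 peak with a −log10 p of 77.9 in WT, a height that 9.68% of the peaks of that list reached. It was the only member with a SUZ12 peak in all 5 lines, at 33.9 in *Ezh2* KO, 13.6 in *Ezh1/2* dKO, 17.4 in *Ezh2* Y726D and 64.6 in *Ezh2* R685C. The *Ezh1/2* dKO peak at *Pcdhac2* was 211 bp wide, and lay almost wholly before the start codon. *Pcdhac1*, the other alpha C type, had SUZ12 peaks in WT (27.6), *Ezh2* Y726D (19.7) and *Ezh2* R685C (29.9) and in neither knockout list. Heights depend on the depth of each library, which is unknown for these lists, so they are not compared between lines.

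Among the other 12 alpha exons, SUZ12 lay on *Pcdha3*, *Pcdha4*, *Pcdha5* and *Pcdha12* in WT, on none in *Ezh2* KO or *Ezh1/2* dKO, and on *Pcdha2*, *Pcdha11* and *Pcdha12* in *Ezh2* Y726D. In *Ezh2* R685C it lay on 9 of these 12. H3K27me3 lay on 9 of 14 alpha exons in WT, 11 in *Ezh2* KO and all 14 in *Ezh2* R685C, and the 9 WT exons were marked in both other lines. *Ezh2* KO added *Pcdha1* and *Pcdha10* to the WT set. *Pcdha6*, *Pcdha7* and *Pcdha8* had H3K27me3 in *Ezh2* R685C (−log10 p 41.5, 40.8 and 70.1) and in no other line, and none of them had SUZ12 in any line. These 3 exons also have many bases that cannot be told from other members: 27.1%, 24.1% and 18.2% of their 50-base words occur elsewhere in the genome, against 0% in *Pcdhac1* and *Pcdhac2*, and the authors kept reads with 1 match only. *Pcdha11* (18.9%), *Pcdhgb2* (18.6%) and *Pcdhgb1* (18.3%) had as many repeated words as *Pcdha8* and did have H3K27me3 in WT. The part of repeated sequence in the missing peaks was not tested.

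Beta exons carried H3K27me3 with little SUZ12. Outside *Ezh2* R685C, no line had a SUZ12 peak in the beta cluster. In *Ezh2* R685C, 6 of 22 beta exons had one: *Pcdhb7*, *Pcdhb17*, *Pcdhb19*, *Pcdhb20*, *Pcdhb21* and *Pcdhb22*, with a −log10 p of at most 18.6. H3K27me3 lay on 15 beta exons in WT, 18 in *Ezh2* KO and all 22 in *Ezh2* R685C, with 14 in common to the 3 lines. The WT peaks were low, at most 19.5, which 17.7% of that list reached. *Ezh2* KO marked *Pcdhb2*, *Pcdhb9*, *Pcdhb10* and *Pcdhb11*, which had no WT peak, and lacked *Pcdhb15*, which had one.

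Gamma exons went the other way from alpha and beta in *Ezh2* KO. H3K27me3 lay on 16 of 22 gamma exons in WT, 6 in *Ezh2* KO and 16 in *Ezh2* R685C. All 6 of *Ezh2* KO (*Pcdhgb2*, *Pcdhgb4*, *Pcdhgb6*, *Pcdhga10*, *Pcdhgb7* and *Pcdhga11*) were marked in WT. The 10 that had a WT peak and none in *Ezh2* KO were *Pcdhgb1*, *Pcdhga5*, *Pcdhga6*, *Pcdhga7*, *Pcdhgb5*, *Pcdhga9*, *Pcdhgb8*, *Pcdhga12* and the C types *Pcdhgc3* and *Pcdhgc4*. WT and *Ezh2* R685C shared 15 exons (93.8% of each set), differing by *Pcdhgb5* in WT and *Pcdhga4* in *Ezh2* R685C. *Pcdhga1*, *Pcdhga2*, *Pcdhga3*, *Pcdhga8* and *Pcdhgc5* had no H3K27me3 peak in any line, and they were the only such members of the 58.

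List length differed between lines, from 8956 H3K27me3 peaks in *Ezh2* KO to 22245 in *Ezh2* R685C among these 3 lists. With the WT and *Ezh2* R685C lists cut to their 8956 strongest peaks, a setting chosen after the peaks were seen, H3K27me3 lay on 9 alpha, 5 beta and 10 gamma exons in WT, 11, 18 and 6 in *Ezh2* KO, and 14, 22 and 15 in *Ezh2* R685C. At 3862 peaks the counts were 2, 2 and 6 in WT, 11, 8 and 3 in *Ezh2* KO and 12, 17 and 5 in *Ezh2* R685C. At both lengths the gamma count of WT was above that of *Ezh2* KO, and its alpha and beta counts were below. SUZ12 lists cut to 3231 peaks gave 3 exons in WT, 7 in *Ezh2* Y726D and 24 in *Ezh2* R685C.

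**Figure D2:**
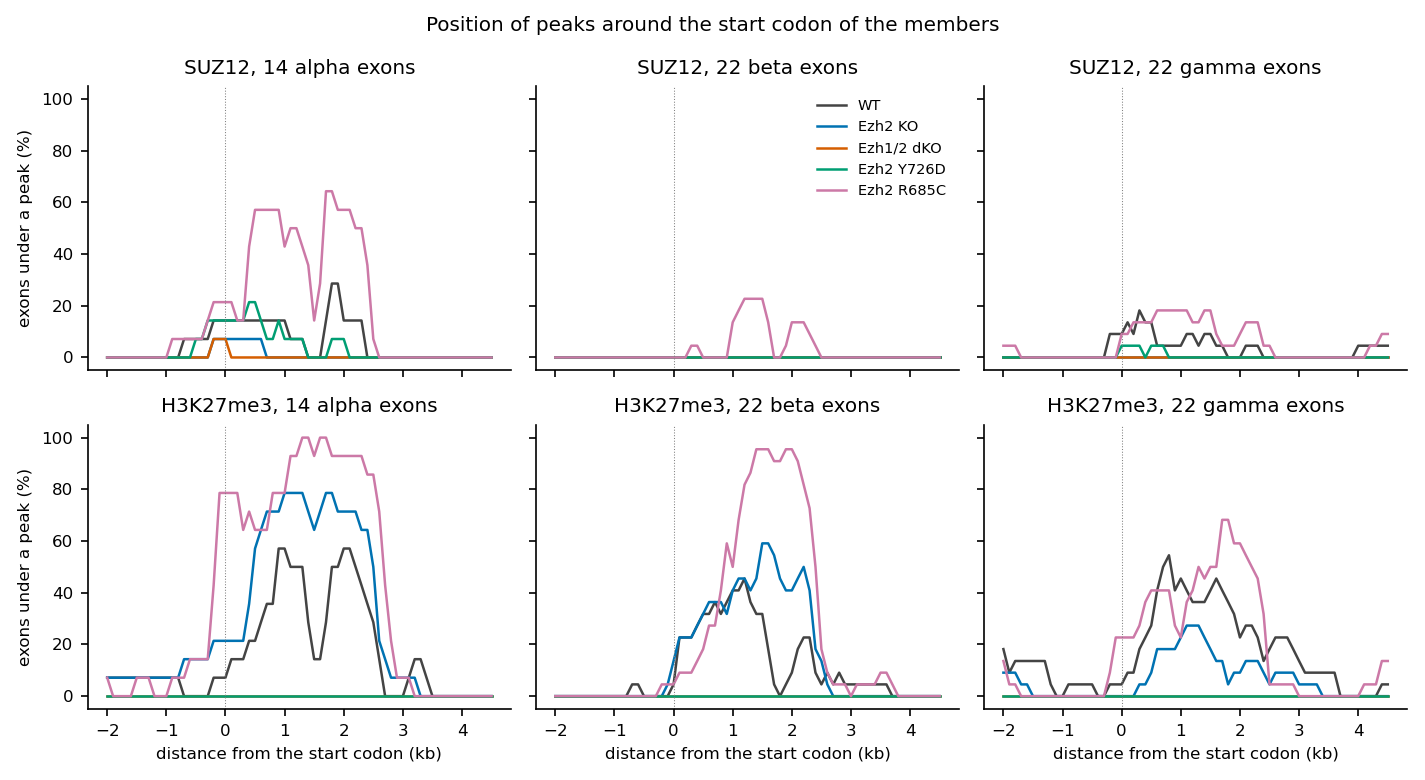
Share of the variable exons of a cluster, in percent, under a SUZ12 (top) or H3K27me3 (bottom) peak at each distance from the start codon in kb, with a line for each of 5 lines and 1 library per line. In *Ezh2* R685C the H3K27me3 share was 95.5% of beta exons at 1500 and at 2000 bp after the start codon and 4.55% at the start codon itself.

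Exons with SUZ12 also had H3K27me3 in WT and *Ezh2* R685C, but not the reverse. All 12 exons with SUZ12 in WT had H3K27me3 (30% of the 40 with H3K27me3), and so had all 24 in *Ezh2* R685C (46.2% of 52). In the beta cluster of WT, 15 exons had H3K27me3 and 0 had SUZ12. In *Ezh2* KO, whose SUZ12 list holds 1578 peaks against 5404 in WT, SUZ12 lay on 1 exon and H3K27me3 on 35. For this line the paper reports SUZ12 as still bound at PRC2 sites. In *Ezh2* Y726D, SUZ12 lay on 7 exons and H3K27me3 on 0. The 12 SUZ12 exons of WT had a median observed-to-expected CpG ratio of 0.66 and the other 46 of 0.47. Within the gamma cluster the medians were 0.67 for 6 exons and 0.48 for 16, and within alpha 0.66 for both groups. All 22 beta exons, which had no SUZ12 in WT, lay between 0.32 and 0.5. This ratio compares the CpG dinucleotides found with those the base content of the exon would give.

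Outside the exons, the *Ezh2* Y726D list held 2 H3K27me3 peaks in the alpha cluster, near *Pcdha7* and *Pcdha8*, and 1 before the beta cluster. The sites near *Pcdha8* and before *Pcdhb1* also had a peak in *Ezh2* KO and *Ezh2* R685C and none in WT. The paper reports a complete loss of H3K27me3 at Polycomb-bound sites of *Ezh2* Y726D, so peaks of that list are not read as the mark.

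H3K27ac was nearly absent from the alpha and beta clusters. No H3K27ac peak touched an alpha or beta variable exon in any of the 4 mutant lines, and no WT list was used here. Near the starts of all 58 members, H3K27ac lay at 3 in *Ezh2* KO (31.2% of protein-coding starts in that list), 2 in *Ezh1/2* dKO (22.8%), 4 in *Ezh2* Y726D (38.8%) and 2 in *Ezh2* R685C (39.2%). All were gamma genes. *Pcdhga8* had a peak in all 4 lists, with a −log10 p of 29, 15.5, 25.5 and 39.3 in that order. *Pcdhga7* had one in each list but *Ezh2* R685C, and *Pcdhga1* in each but *Ezh1/2* dKO. In *Ezh2* Y726D a further peak lay at *Pcdhgc3* (14.8).

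Many H3K27ac peaks of the gamma cluster lay after *Pcdhgc5*, the last variable exon, towards the constant exons: 5 of 8 in *Ezh2* KO, 5 of 7 in *Ezh1/2* dKO, 6 of 13 in *Ezh2* Y726D and 4 of 13 in *Ezh2* R685C. H3K27ac covered 3.36% of the gamma cluster in *Ezh2* KO, 2.07% in *Ezh1/2* dKO, 7.66% in *Ezh2* Y726D and 8.64% in *Ezh2* R685C, while these lists covered 0.773%, 0.436%, 1.33% and 1.88% of the genome. In the alpha cluster 1 or 2 peaks lay between *Pcdhac2* and the constant exons in each mutant line but *Ezh2* R685C.

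In *Ezh1/2* dKO cells with HA-EZH1, peaks lay on the exons of *Pcdha5*, *Pcdha12*, *Pcdhac1*, *Pcdhac2* and *Pcdhgb6*. These were 5 of 58 exons (8.62%), where 8.14% of protein-coding genes had a peak in the 2425 bp after the start, so the share was at the background. The untagged *Ezh1/2* dKO list also had a peak at *Pcdhac1*, 318 bp wide against 889 bp with HA-EZH1, and 1 near *Pcdhga12*, and touched 1 of 58 exons (1.12% of genes). Within 1 kb of a start, both HA lists had peaks at 2 of 58 members, where 8.18% and 1.32% of all protein-coding starts had one.

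In WT, broad regions of H3K27me2 and H3K27me1 covered less of the alpha and beta clusters than of the genome, and more of the gamma cluster. H3K27me2 regions covered 5.54% of the alpha cluster, 0% of beta and 19.9% of gamma in WT, beside 14.2% of the genome on the chromosomes listed. In *Ezh2* KO they covered 38.1%, 51.6% and 39.6%, beside 16.1%, and lay on 57 of 58 exons, where 37.2% of genes had a region in the 2425 bp after the start. In WT they lay on 8 exons (39.7% of genes), in *Ezh1/2* dKO on 30 (46.4%) and in *Ezh2* Y726D on 29 (53.5%). In *Ezh1/2* dKO the values were 15.3%, 7.9% and 13.7% (genome 24.1%), and in *Ezh2* Y726D 14.2%, 6.49% and 13.2% (23.8%). For both of these lines the paper reports, from western blots, a complete loss of H3K27 methylation. From ChIP-seq it reports a loss of H3K27me2 within poorly expressed genes in both lines and in *Ezh2* KO. In *Ezh2* KO it also reports a gain of H3K27me2 at Polycomb-bound promoters. The H3K27me2 regions of *Ezh1/2* dKO and *Ezh2* Y726D are thus not read as the mark. Yet their lists covered more of the genome, alpha and beta than the WT list did, and less of gamma. The low WT coverage of alpha and beta is therefore not read as absence of H3K27me2. The share of background in the WT and *Ezh2* KO lists was not tested. The highest −log10 p in the clusters was 8.6 in *Ezh2* KO and 2 to 2.3 in the other 3 lists. H3K27me1 covered 7.18%, 0% and 16.4% of the clusters in WT and 21.1%, 14.1% and 14.4% in *Ezh2* KO. The genome values were 14.7% and 19.9%, and no −log10 p in the clusters passed 3.6. The H3K27me1 lists of *Ezh1/2* dKO and *Ezh2* Y726D hold no region of chromosome 18 and were not used for the clusters. ATAC-seq regions covered 40.1% to 44.2% of the gamma cluster, 16.9% to 22.2% of alpha and 15.7% to 21% of beta over the 4 lines, beside 22.7% to 24.3% of the genome, and no −log10 p of these regions in the clusters passed 3.6.

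In RNA-seq the 3 clusters stood at different levels. Per kb of countable exon, the mean normalized count was 2.15 to 37.3 for gamma genes, 0.0554 to 1.2 for beta genes and 0.093 to 0.173 for alpha genes. A gamma gene had 45 to 759 reads over the 8 libraries together, a beta gene 2 to 35 and an alpha gene 2 or 3. All 22 gamma genes passed the filter of a mean normalized count of at least 5 and were tested, while the 15 beta and 3 alpha genes did not pass. The members tested were thus the gamma genes only. Because reads on the shared constant exons belong to no single gene, these counts come from the variable exons. In bulk RNA, fewer cells that express a gene and less RNA per cell cannot be told apart.

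Levels of gamma genes spread widely. Per kb of variable exon, *Pcdhga8* had the highest mean normalized count (37.3), followed by the C type *Pcdhgc3* (27.6), *Pcdhga1* (22.4), *Pcdhga7* (16.6) and *Pcdhga12* (14.7). The other 17 lay between 2.15 (the C type *Pcdhgc5*) and 8.88 (*Pcdhga2*). *Pcdhga1*, *Pcdhga7* and *Pcdhga8*, which had H3K27ac at the start in 3 or 4 lists, were thus among the 4 highest. The 16 gamma genes with an H3K27me3 peak on the exon in WT had WT normalized counts of 5.19 to 86.6 (median 10.1) and the 6 without one, *Pcdhga8* the highest of them, started at 5.45 (median 17.9). For SUZ12 in WT the medians were 10.2 for 6 genes with a peak and 13.6 for 16 without. *Pcdhgc3*, with 76 and 97.2 in the WT libraries, was among the 16 with H3K27me3.

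**Figure D3:**
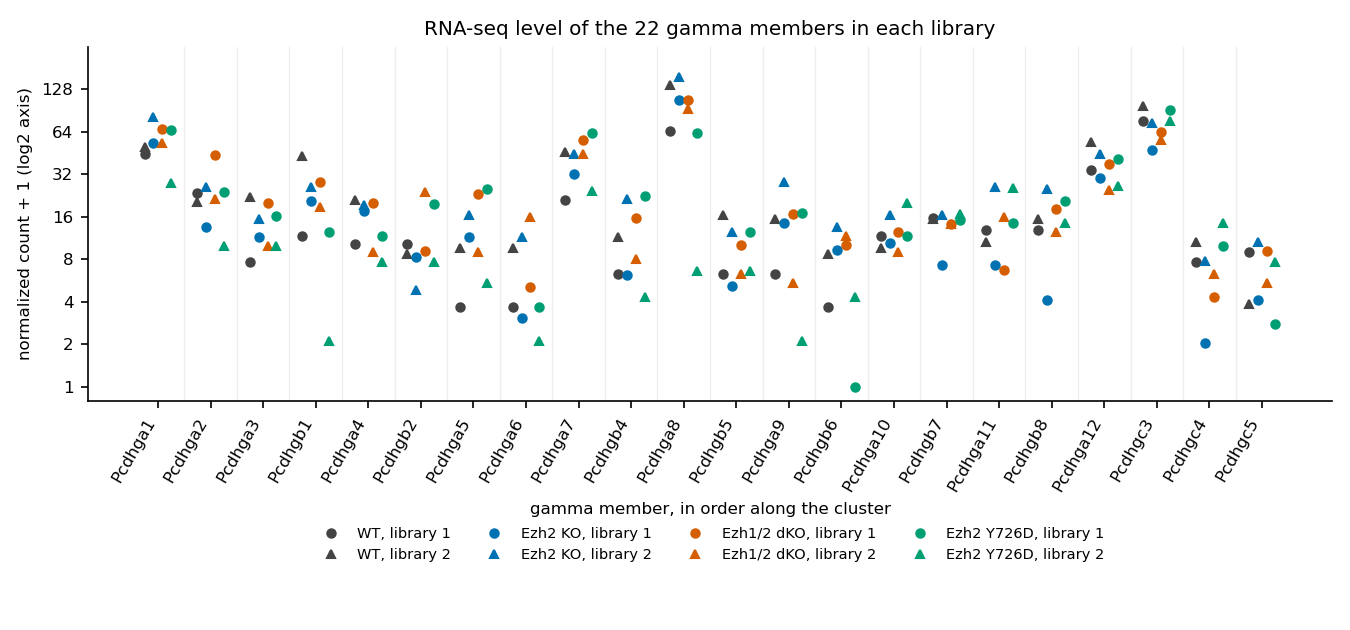
Normalized count plus 1 (log2 axis) of each of the 22 gamma genes in each of 8 RNA-seq libraries, in genomic order; colour is the line and circles and triangles are libraries 1 and 2. The lines overlap at most genes, and *Ezh2* Y726D library 2 lies lowest for 8 of 22.

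By limma no gamma gene was called between lines, where a call needs a log2 fold change of 1 or more in either direction with an adjusted p below 0.1. The count was 0 of 22 in *Ezh2* KO versus WT (0.404% of 13872 genes tested were called), 0 in *Ezh1/2* dKO versus WT (4.02%), 0 in *Ezh2* Y726D versus WT (2.72%) and 0 in *Ezh1/2* dKO with *Ezh2* Y726D versus WT with *Ezh2* KO (5.57%). edgeR and DESeq2 on the recovered reads gave 0 as well in each. At an unadjusted p under 0.05 the limma counts were 0, 0, 2 and 0. The median log2 fold change of the 22 genes was 0.11, 0.09, -0.1 and -0.01 in this order, where the median of all genes tested was -0.01, 0.01, -0.01 and -0.01. The 3 comparisons with WT share the WT libraries. Intervals were wide: in each of them a gene's 95% interval reached a median of 1.61 on either side of its log2 fold change, so that changes of 2-fold were not detectable for most gamma genes at this depth. Between mutant lines the count was 0 of 22 in *Ezh1/2* dKO versus *Ezh2* KO (3.58% of genes called). It was also 0 in *Ezh2* Y726D versus *Ezh2* KO (3.53%) and *Ezh2* Y726D versus *Ezh1/2* dKO (1.68%). At an unadjusted p under 0.05 the limma counts were 0, 3 and 3 in this order. For the unadjusted counts no share over all genes was computed, so they are not read as a result.

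**Figure D4:**
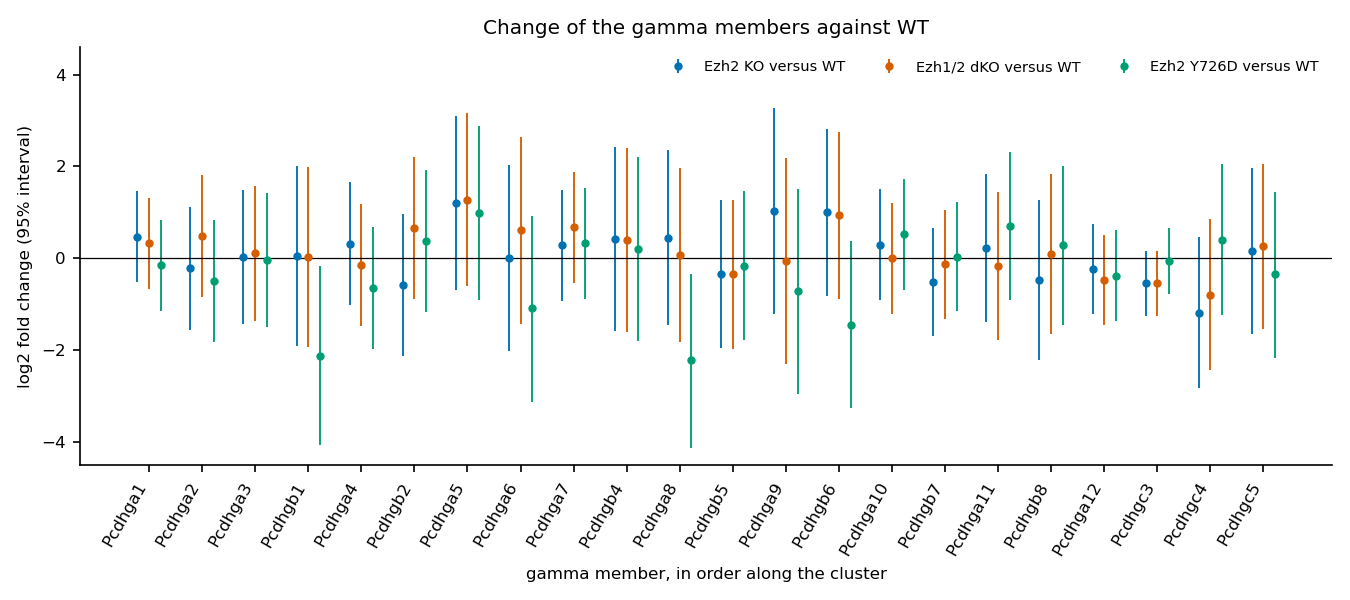
Log2 fold change of log2(normalized count + 1) against WT for the 22 gamma genes in the 3 mutant lines, with 95% intervals from limma over all 8 libraries. The intervals span 0 for all genes in *Ezh2* KO and *Ezh1/2* dKO and for all but *Pcdhga8* and *Pcdhgb1* in *Ezh2* Y726D.

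Among the C types, *Pcdhgc3* had the narrowest interval. Its normalized counts were 76 and 97.2 in WT, 47 and 73.5 in *Ezh2* KO, 62.6 and 55.1 in *Ezh1/2* dKO, and 90.1 and 76.1 in *Ezh2* Y726D. Both knockout lines lay below WT without overlap, as did 17.6% of all genes tested in *Ezh2* KO and 24.5% in *Ezh1/2* dKO, and *Ezh2* Y726D lay within it. The log2 fold change was -0.54 in *Ezh2* KO (SE 0.32, adjusted p = 0.677 by limma) and -0.54 in *Ezh1/2* dKO (SE 0.32, adjusted p = 0.392), and -0.05 in *Ezh2* Y726D (SE 0.32, adjusted p = 0.969). *Pcdhgc4* had 6.67 and 9.63 in WT, 1.05 and 6.77 in *Ezh2* KO, 3.3 and 5.33 in *Ezh1/2* dKO, and 8.92 and 13.4 in *Ezh2* Y726D. *Pcdhgc5* lay between 1.78 and 9.68 in all libraries, with every line overlapping WT. *Pcdhga1* was at 44 and 49.1 in WT, 52.3 and 80.3 in *Ezh2* KO, 65.9 and 52.4 in *Ezh1/2* dKO, and 65.1 and 26.8 in *Ezh2* Y726D, with log2 fold changes of 0.47, 0.33 and -0.15 (SE 0.44 each).

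*Pcdhga8*, the highest member, showed how far 1 library could move a value. Its normalized counts were 64 and 137 in WT, 106 and 157 in *Ezh2* KO, 106 and 92.3 in *Ezh1/2* dKO, and 61.5 and 5.59 in *Ezh2* Y726D. Both *Ezh2* Y726D values lay below all others (18.1% of genes tested were lower than WT there without overlap), but library 2 had 5 reads against 69 in library 1. The log2 fold change against WT was -2.22 (SE 0.84, adjusted p = 0.262 by limma). Without *Ezh2* Y726D library 1, which leaves this line 1 library, the log2 fold change of *Pcdhga8* against WT was -3.84. *Ezh2* Y726D library 2 had the lowest value of 8 of the 22 genes, and was the lowest library for 18.8% of all genes tested. The gamma sum there was 302 against 542 in library 1.

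Over the whole gamma cluster the summed normalized count was 384 and 617 in WT, 406 and 679 in *Ezh2* KO, 577 and 454 in *Ezh1/2* dKO, and 542 and 302 in *Ezh2* Y726D. The ratio to WT was 1.08, 1.03 and 0.843, and the WT libraries alone differed more. The A types summed to 157 to 476 over all libraries, the B types to 49.2 to 113 and the C types to 51.2 to 110.

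Beta genes were near the detection limit in WT, and none of the 15 passed the filter to be tested. The 15 genes together had 4 and 6 reads in WT, 10 and 5 in *Ezh2* KO, 40 and 32 in *Ezh1/2* dKO and 29 and 30 in *Ezh2* Y726D. As summed normalized counts these were 5.34 and 5.78 in WT, 10.5 and 4.84 in *Ezh2* KO, 33 and 28.4 in *Ezh1/2* dKO, and 25.9 and 33.6 in *Ezh2* Y726D. The *Ezh1/2* dKO and *Ezh2* Y726D values did not overlap those of WT and *Ezh2* KO. The ratio of means to WT was 5.52 in *Ezh1/2* dKO, 5.35 in *Ezh2* Y726D and 1.38 in *Ezh2* KO. No p is given for this sum, since the genes were grouped with results known.

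**Figure D5:**
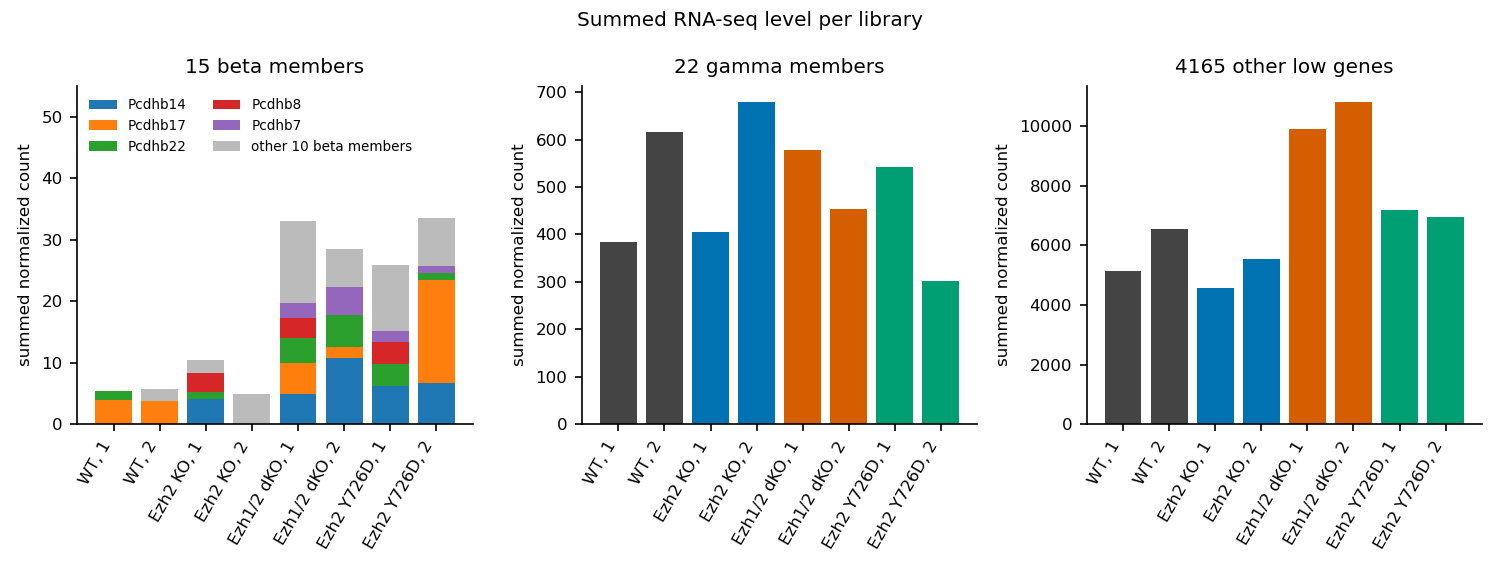
Summed normalized count per RNA-seq library for the 15 beta genes (left, stacked by gene), the 22 gamma genes (middle) and the 4165 other genes below the filter (right), each axis starting at 0. The beta sum was 4.84 to 10.5 in WT and *Ezh2* KO and 25.9 to 33.6 in the other lines, and the gamma sum overlapped between lines.

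Other low genes were also higher than in WT in *Ezh1/2* dKO and *Ezh2* Y726D, by less, and not in *Ezh2* KO. The 4165 genes below the filter that were not members summed to 5130 and 6540 in WT, 4580 and 5540 in *Ezh2* KO, 9910 and 10800 in *Ezh1/2* dKO, and 7190 and 6940 in *Ezh2* Y726D, ratios to WT of 0.867, 1.78 and 1.21. Endoderm markers were higher in the same 4 libraries, as given above, and their part in the beta sum was not tested. Of the 15 beta genes, 2 and 3 had a read in the WT libraries, 5 and 2 in *Ezh2* KO, 14 and 7 in *Ezh1/2* dKO, and 9 and 7 in *Ezh2* Y726D.

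Which beta gene gave the reads differed between libraries. *Pcdhb14* had 0 and 0 reads in WT, 4 and 0 in *Ezh2* KO, 6 and 12 in *Ezh1/2* dKO, and 7 and 6 in *Ezh2* Y726D, and was thus higher in the 4 libraries of the last 2 lines than in the other 4. *Pcdhb7* had no read in WT or *Ezh2* KO, 3 and 5 in *Ezh1/2* dKO, and 2 and 1 in *Ezh2* Y726D. *Pcdhb14* and *Pcdhb7* were the 2 of 18 members below the filter whose groups did not overlap in this way, where 5.12% of the 4183 genes below the filter were higher without overlap. No member below the filter was lower (0.598% of such genes), and no gamma gene was higher or lower (6.29% and 3.6% of genes tested). Against WT alone, 6 of the 18 were higher in *Ezh1/2* dKO without overlap and 3 in *Ezh2* Y726D, where 30.9% and 15.6% of genes below the filter were. As shares of the 18 members these were 33.3% and 16.7%, both near the background. *Pcdhb17* had 3 and 4 reads in WT, 0 and 0 in *Ezh2* KO, 6 and 2 in *Ezh1/2* dKO, and 0 and 15 in *Ezh2* Y726D. *Pcdhb22* had 1 and 0, 1 and 0, 5 and 6, and 4 and 1 reads in the same order of lines. With *Pcdhb14* and *Pcdhb17* left out, the other 13 genes summed to 1.33 and 1.93 normalized counts in WT, 6.27 and 4.84 in *Ezh2* KO, 23.1 and 16 in *Ezh1/2* dKO, and 19.6 and 10.1 in *Ezh2* Y726D.

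With no filter on low counts, *Pcdhb7* was called higher in *Ezh1/2* dKO versus WT (log2 fold change 2.12, adjusted p = 0.0767 by limma, 1 of 40 members), and *Pcdhb7* and *Pcdhb14* in *Ezh1/2* dKO with *Ezh2* Y726D versus WT with *Ezh2* KO (1.7, adjusted p = 0.0398, and 2.39, adjusted p = 0.063). These were 2.5% and 5% of the 40 members, where 2.93% and 4.71% of all 18055 genes were called at this setting, so both shares were near the background. DESeq2 called neither: *Pcdhb14* had adjusted p = 0.193 in *Ezh1/2* dKO versus WT, and none was given for *Pcdhb7*. Both genes had an H3K27me3 peak on the exon in WT, *Ezh2* KO and *Ezh2* R685C, and were among 14 of 22 beta exons that did. The *Pcdhb14* peaks had a −log10 p of 10.8 and 12.1 in WT and 10.7 in *Ezh2* KO, where both lists start at 10.

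The 3 alpha genes of the table, *Pcdha3*, *Pcdha6* and *Pcdhac2*, had 2, 3 and 3 reads in all 8 libraries together. *Pcdha3* had its 2 reads in *Ezh1/2* dKO library 2, *Pcdha6* had 1 and 2 in the *Ezh1/2* dKO libraries, and *Pcdhac2* had 2 in WT library 1 and 1 in *Ezh2* Y726D library 1. These counts allow no statement on a change, at the cluster with the highest SUZ12 peak of each list.

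Of 27 regulators tested (CTCF, cohesin and its loaders, DNA methyltransferases, TET enzymes and others), *Tet3*, which oxidizes methylated cytosine, was called higher in *Ezh1/2* dKO versus WT (1.39, SE 0.32, adjusted p = 0.0583 by limma), with 81.4 and 66.4 in WT and 213 and 178 in *Ezh1/2* dKO. *Dnmt3l*, a partner of the de novo DNA methyltransferases, was called higher in *Ezh2* Y726D versus WT (1.07, SE 0.23, adjusted p = 0.0614), with 942 and 686 in WT and 1670 and 1700 in *Ezh2* Y726D. *Tet3* was also called in *Ezh1/2* dKO with *Ezh2* Y726D versus WT with *Ezh2* KO (1.06, adjusted p = 0.0336). None of the 27 was called lower or called in *Ezh2* KO. Each of these was 1 of 27, where 4.02%, 2.72% and 5.57% of all genes tested were called in *Ezh1/2* dKO versus WT, *Ezh2* Y726D versus WT and the comparison of 2 lines with 2.

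Of 9 partners of the cytoplasmic tails tested, *Ptk2b*, a focal adhesion kinase family member, was called higher in *Ezh1/2* dKO (1.38, adjusted p = 0.0623 by limma) and *Ezh2* Y726D (1.9, adjusted p = 0.0324) versus WT, and in the comparison of both lines with WT and *Ezh2* KO (1.15, adjusted p = 0.0256). Non-clustered protocadherins were low: 2 of 12 were tested, and *Pcdh1* was called in the comparison of *Ezh1/2* dKO with *Ezh2* Y726D against WT with *Ezh2* KO (1.75, adjusted p = 0.0861). Their sum was 33.3 and 38.5 in WT, 11.5 and 7.74 in *Ezh2* KO, 74.2 and 52.4 in *Ezh1/2* dKO and 51.7 and 51.5 in *Ezh2* Y726D. Of 14 other cadherins tested, *Cdh3* was called higher in *Ezh1/2* dKO versus WT (1.16, adjusted p = 0.0329), and *Cdh2* (1.74), *Cdh13* (1.49) and *Fat3* (2.65, adjusted p = 0.0202) in the comparison of 2 lines with 2. These were 1 of 14 (4.02% of all genes) and 3 of 14 (5.57%), and *Ptk2b* was 1 of 9 in each comparison named, beside 4.02%, 2.72% and 5.57% of all genes. Of 11 neighbouring genes on either side of the clusters that were tested, 0 were called in the 3 comparisons with WT or the comparison of 2 lines with 2, where 0.404% to 5.57% of all genes were.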

How the data were processed

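Members and gene lists were chosen with earlier results of these data known. Per the labels and the methods, reads of ChIP-seq and of ATAC-seq were mapped by the authors to mm9 with Bowtie (unique matches), cleared of duplicates with Picard and given to MACS2, 1 library per list. The values used from the deposited lists are −log10 p, and the HA lists hold positions only. How many reads a list rests on is unknown. SUZ12, H3K27me3 and H3K27ac lists hold peaks of p at most 1e-10. Broad lists (H3K27me1, H3K27me2 and ATAC) reach p near 0.1 and were used as deposited.

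For RNA-seq (50 bp single-end reads), the authors counted unstranded reads per gene with HTSeq-count after TopHat. The deposited signal is the normalized count, the read count divided by a DESeq2 size factor, and 100% of values were whole reads within 0.01 read. Genes with a mean of at least 5 (13872 of 18055) were tested with limma 3.58.1 in R 4.3.3 on log2(value + 1), a scale that understates changes of low genes, in 1 fit over the 8 libraries, adjusted by Benjamini-Hochberg. The authors' own fold changes and p-values were not used. No column belonged to another sample. edgeR 4.0.16 and DESeq2 1.42.0 on the recovered reads were alternatives. In counts simulated for *Ezh1/2* dKO versus WT, 13398 genes were tested. The fit recovered 197 of 200 genes that were changed 4-fold and made 33 false calls. The changed genes were drawn from those with a WT mean of at least 20, with the same relative spread for all genes. Of the members, 6 had a mean of at least 20 over the 8 libraries. Members also differed more between libraries of a line (median 0.64 to 1.09 in log2) than all genes tested (0.18 to 0.35). The recovery thus does not carry over to the gamma genes.

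Variable exons were found in mm9 as open reading frames of 2200 to 2700 bp. Beta exons were named by GENCODE, alpha and gamma exons by order and spacing of the RefSeq genes, which differed by at most 291 and 459 bp. Overlaps needed 1 bp. Sense and antisense reads cannot be told apart, and paralogs may share reads. Reads of shared constant exons were taken as uncounted. Samples titled for Y726D alone were treated as the line that also lacks *Ezh1*. RING1B, H2AK119ub and rescue samples were not analysed here. Named were the C types, called members and the 3 highest members per kb of each cluster, and called genes of the other lists. Other members were named after their values were seen. Python 3.11.15, pandas 2.3.3 and matplotlib 3.10.9 were used.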

Additional observations from a re-analysis of the deposited data

How the results depend on the processing

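No member was called in any of 20 alternative settings of *Ezh2* KO versus WT, and in the other comparisons the count of 0 moved in 1 or 2 of 20. Without the filter on low counts it became 1 in *Ezh1/2* dKO versus WT, 1 in *Ezh1/2* dKO versus *Ezh2* KO and 2 in the comparison of 2 lines with 2, since more genes were tested. The other moves all came without *Ezh2* Y726D library 1, which leaves this line 1 library, so their counts are not given. The log2 fold change of *Pcdhga8* in the comparison of 2 lines with 2 was -2.11 there. Where a line kept 1 library, it was assumed to vary like the others. With the replicate number as a block 0 members were called in all 7 comparisons. The numbers were not used as pairs, since deviations of same-numbered libraries correlated between -0.41 and 0.29. The beta ratio to WT was 4.12 in *Ezh1/2* dKO and 4.18 in *Ezh2* Y726D without *Pcdhb14*, a setting added after the values were seen, and leaving out 1 library gave 5.11 to 5.93 and 4.65 to 6.04. A ratio without *Pcdhb17* is not given, since 3 reads remain in WT.

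Counts of member starts with a peak depended on window and threshold, and the causes were not tested beyond fewer peaks being left. For SUZ12 in WT, 7 became 12 within 2 kb or on the exon, 3 at p of at most 1e-20 and 1 in a list cut to 1578 peaks. At p of at most 1e-20, SUZ12 counts were 0 in *Ezh1/2* dKO, 0 in *Ezh2* Y726D and 8 in *Ezh2* R685C, and in the cut lists 3 in *Ezh2* Y726D and 9 in *Ezh2* R685C. For H3K27me3 in WT, 32 became 18 within 500 bp, 3 at p of at most 1e-20 and 8 in a list cut to 3862 peaks, and in *Ezh2* KO 26 became 17 within 500 bp. For H3K27ac, counts at p of at most 1e-20 were 1 in *Ezh2* KO and 0 in *Ezh1/2* dKO, and 4 exons were touched in *Ezh2* R685C. For HA-EZH1 the count was 5 within 2 kb or on the exon, and for the untagged list 1 on the exon. HA lists give no p, so threshold settings could not be run there. Coverage of the 3 clusters by SUZ12, H3K27me3, H3K27ac and HA moved by less than 1.5 times when each was extended by 50 kb. H3K27me1 in WT became 12.2% with that extension. With broad regions of a −log10 p below their list's median left out, coverage was 8.55% for H3K27me1 in *Ezh2* KO and 3.68% and 4.14% for H3K27me2 in *Ezh1/2* dKO and *Ezh2* Y726D. The blocks inside broad regions left 0.124% and 0% for H3K27me1 in WT and *Ezh2* KO, 11.1% for H3K27me2 in *Ezh2* KO and 0% in the other 3 lists, and for ATAC 0.0519% in WT, 0.0251% in *Ezh1/2* dKO, 0.0355% in *Ezh2* KO and 0.0588% in *Ezh2* Y726D.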
